A study of Mus musculus with 27 samples.

Results

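The transcription factors Alx1, Foxc1, Foxc2, Meox1, Prrx1 and Prrx2 were followed in differentiating mouse embryonic stem cells. They were taken by gene symbol, 6 of the 13297 genes that passed a filter on low values, and Alx1 was also selected on a peak at day 5 in the control arrays. Each gene was represented by its probe set of highest mean over the 27 arrays, and the 7 other probe sets of these genes served as a check. AB2.2 embryonic stem cells of both arms carried a lentivirus that coexpresses enhanced green fluorescent protein with a short hairpin RNA (shRNA), directed against Sox17 in one arm and against firefly luciferase, which mouse cells lack, in the control arm. In both arms the GFP-positive cells had been sorted by flow cytometry, aggregated as embryoid bodies in hanging drops, and plated at day 4.5. Total RNA was taken at day 0, at days 2, 4, 5 and 6, and at days 8 and 10, from 2 biological replicates per arm and day, 1 array each, except for 1 Sox17 shRNA array at day 0. By its title the series asks whether Hhex and Cer1 act downstream of Sox17 in the formation of cardiac mesoderm. All cells came from 1 line and the labels name no sorting by cell type, so a value is an average over the cells of a culture. In such bulk RNA, fewer cells of a type and less RNA per cell cannot be told apart.

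Mesenchyme is loosely packed embryonic tissue that arises from mesoderm and from neural crest and later gives rise to connective tissue, cartilage and bone. The genes described here encode DNA-binding proteins that mark or pattern it. Alx1, Prrx1 and Prrx2 are paired-type homeobox factors of the face, skull and limb bud mesenchyme, Foxc1 and Foxc2 are forkhead factors of paraxial mesoderm, head mesenchyme, the cardiac outflow region and vessels, and Meox1 is a homeobox factor of somites.

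In the control arm, Foxc1 and Foxc2 rose between days 2 and 5, Prrx2 between days 4 and 6 and Prrx1 between days 6 and 8, Alx1 was high at day 5 and Meox1 was nearly flat. With Sox17 shRNA, Foxc1 and Foxc2 were lower at days 5 and 6 and over days 6, 8 and 10 together, and Alx1 stayed near its day 0 level throughout. Prrx2 was lower by a smaller amount, which in the main fit passed the test only in the average of the 3 late days. Prrx1 and Meox1 passed in no arm comparison of the main fit on the probe sets that represent them.

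**Figure D1:**
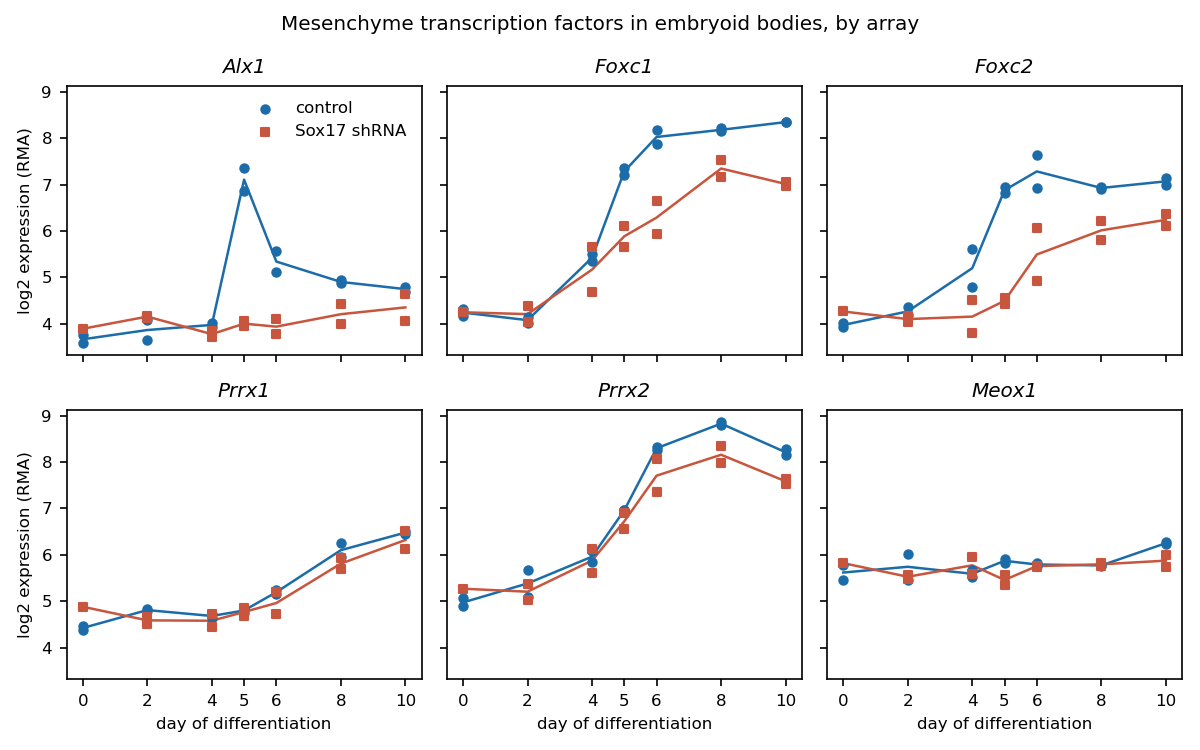
Log2 expression (RMA values) of each gene on every array, by day of differentiation. Circles are control arrays, squares are Sox17 shRNA arrays and lines join the group means. The 2 control arrays of Alx1 at day 5 lie at 7.35 and 6.87, and those with Sox17 shRNA at 3.95 and 4.06.

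A gene is called where its p-value from limma lies below 0.05 after Benjamini-Hochberg adjustment over all 13297 genes. SE is the standard error of the fit, and differences are on the log2 scale, Sox17 shRNA minus control. The p-values measure the spread between these arrays, since the labels do not say whether replicates came from separate transductions. As a check of the shRNA, Sox17 was lower in its arm at day 4 (difference -3.02, adjusted p = 0.0377) and at day 10 (-3.03, adjusted p = 0.0205), and over days 6, 8 and 10 (-1.84, adjusted p = 0.00749). It was not called lower at day 5 (-1.45, adjusted p = 0.307), when the Sox17 shRNA arrays read 7.77 and 10.08 against 10.38 on both control arrays, nor at day 8 (-1.88, adjusted p = 0.25). At day 6 (-0.60, adjusted p = 0.835) the arms overlapped: the control arrays read 9.83 and 9.36 for Sox17, and the array labelled Sox17 shRNA day 6 replicate 2 read 9.39. The late averages of the 6 genes are therefore also given without that array. The signal of the bioB hybridisation spike-in was 8.86 or more at days 0 and 2 and in replicate 1 of day 4, in both arms, and at most 7.67 on every other array, so the arm comparisons of days 5 to 10 lie on arrays of low spike-in signal. RNA integrity was read from the actin control probe sets, whose 3' minus 5' signal was 0.86 in Sox17 shRNA day 4 replicate 2 and 0.75 in Sox17 shRNA day 6 replicate 2, and 0.33 to 0.55 elsewhere.

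Alx1, a homeobox factor needed for closure of the skull and face, was low on nearly all arrays. It exceeded 5.53, the median of all values of the series, on 3 arrays, and these were the 2 control arrays of day 5 and 1 of day 6, so it passed the filter through the control arm alone. In control cultures the paired values were 3.58 and 3.75 on day 0, 3.65 and 4.08 on day 2, and 3.94 and 4.02 on day 4. They were 7.35 and 6.87 on day 5, then 5.57 and 5.11 on day 6, 4.94 and 4.87 on day 8, and 4.69 and 4.80 on day 10. The day 5 arrays were thus the highest of the arm, and the days from 6 onward stayed above those before day 5.

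With Sox17 shRNA, Alx1 had no such peak. Its values were 3.89 on day 0, 4.14 and 4.18 on day 2, 3.84 and 3.71 on day 4, 3.95 and 4.06 on day 5, 4.10 and 3.78 on day 6, 4.43 and 3.99 on day 8, and 4.65 and 4.05 on day 10. The 13 arrays of this arm spanned 3.71 to 4.65, and 0 of its 5 steps between neighbouring days from day 2 was called for Alx1. The Sox17 shRNA arrays lay above the control arrays at days 0 and 2 and below them at day 4 and on each later day. At day 5 Alx1 was 8.60-fold lower (difference -3.10, SE 0.22), which is given without a test because that peak chose the gene.

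After day 5, Alx1 was 2.65-fold lower at day 6 (difference -1.40, SE 0.22, adjusted p = 0.000573, and 0.000364 with no filter on low values). A peak at day 5 is relative to the control arrays of the other days, day 6 among them. Alx1 also passed the filter through control arrays alone. The p-values of this paragraph therefore describe Alx1 and give no independent support. At day 8 the difference was -0.70 (adjusted p = 0.0811) and at day 10 -0.39 (adjusted p = 0.325), neither called. The day 10 difference was -0.09 without Sox17 shRNA day 10 replicate 2 and -0.69 without replicate 1. Averaged over days 6, 8 and 10 Alx1 was 1.78-fold lower (difference -0.83, SE 0.12, adjusted p = 9.38e-05; 5.66e-05 with no filter on low values), and the difference was -0.78 without Sox17 shRNA day 6 replicate 2. The other probe set of Alx1, 1456454_at, did not pass the filter. It read 5.59 and 5.03 in control and 3.35 and 3.40 with Sox17 shRNA at day 5, so both probe sets held the peak. Its difference was -0.63 at day 6 (adjusted p = 0.0605, not called) and -0.37 over the late days (adjusted p = 0.0187).

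Foxc1, a forkhead factor needed for somite, eye and cardiac outflow development, was low at days 0 and 2 in both arms, with values from 4.01 to 4.38. In control cultures it read 5.35 and 5.50 on day 4, 7.37 and 7.21 on day 5, 8.19 and 7.87 on day 6, 8.15 and 8.22 on day 8, and 8.35 on both arrays of day 10. With Sox17 shRNA it read 4.68 and 5.66 on day 4, 6.12 and 5.66 on day 5, 6.64 and 5.94 on day 6, 7.52 and 7.17 on day 8, and 6.97 and 7.06 on day 10. The arms overlapped at day 4 and were apart on each later day. No Sox17 shRNA array reached the control level of day 6.

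Foxc1 was 2.64-fold lower with Sox17 shRNA at day 5 (difference -1.40, SE 0.26, adjusted p = 0.0028) and 3.33-fold lower at day 6 (-1.74, SE 0.26, adjusted p = 0.000408). The day 6 difference was -1.39 without Sox17 shRNA day 6 replicate 2 and -2.09 without replicate 1. The larger fall was thus on replicate 2, which read Sox17 at the control level of that day and had an actin 3' minus 5' signal of 0.75. Whether either goes with the fall was not tested. At day 8 the difference was -0.83 and missed the threshold (adjusted p = 0.0811). With the spike-in signal as a covariate it was called (adjusted p = 0.0439). It was -1.01 without Sox17 shRNA day 8 replicate 1 and -0.66 without replicate 2. Leaving out a Sox17 shRNA array of day 4 or 6 left it at -0.83. At day 10 the difference was -1.33 (adjusted p = 0.00229). Over the 3 late days Foxc1 was 2.46-fold lower (difference -1.30, SE 0.15, adjusted p = 4.87e-06), and the difference was -1.18 without Sox17 shRNA day 6 replicate 2. The second probe set, 1419485_at, was called at day 8 too (difference -1.09, adjusted p = 0.00897), and over the late days its difference was -1.47.

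Foxc2, the close relative of Foxc1 with overlapping roles in somites, the aortic arch and lymphatic vessels, had 1 probe set. In control cultures it read 4.80 and 5.60 on day 4, 6.94 and 6.82 on day 5, 7.64 and 6.93 on day 6, 6.94 and 6.91 on day 8, and 7.15 and 6.99 on day 10. With Sox17 shRNA it read 3.80 and 4.51 on day 4, 4.43 and 4.56 on day 5, 6.06 and 4.93 on day 6, 6.21 and 5.82 on day 8, and 6.11 and 6.37 on day 10. Both Sox17 shRNA arrays lay below both control arrays on each of these days, and the Sox17 shRNA arrays of day 5 were still close to the day 0 values of 3.92 to 4.27.

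At day 4 the Foxc2 difference of -1.04 was not called (adjusted p = 0.0658). Replicate by replicate, which keeps the spike-in signal alike within each pair, it was -1.0 and -1.09, and without Sox17 shRNA day 4 replicate 2 it was -1.40 and called (adjusted p = 0.0248). It was also called without either Sox17 shRNA array of day 6 (adjusted p = 0.0275) and with the spike-in signal as a covariate (adjusted p = 0.0398), whereas without control day 4 replicate 2 it was -0.64 and not called (adjusted p = 0.387). At day 5 Foxc2 was 5.22-fold lower (difference -2.39, SE 0.32, adjusted p = 0.000219). At day 6 it was 3.46-fold lower (-1.79, SE 0.32, adjusted p = 0.002), a call that did not hold without control day 6 replicate 1 (-1.44, adjusted p = 0.0631) and in a fit of only the day 6 arrays (adjusted p = 0.0903). The day 6 difference of Foxc2 was -1.225 without Sox17 shRNA day 6 replicate 2 and -2.36 without replicate 1. The larger fall was again on replicate 2, the array with Sox17 at the control level and an actin 3' minus 5' signal of 0.75. At days 8 and 10 the differences were -0.91 (adjusted p = 0.129) and -0.83 (adjusted p = 0.117), not called in this fit and called with array weights (adjusted p = 0.0337 and 0.0103). Over the late days Foxc2 was 2.26-fold lower (-1.18, SE 0.18, adjusted p = 0.000131), and the difference was -0.99 without Sox17 shRNA day 6 replicate 2.

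Prrx2, a paired-related homeobox factor of limb and facial mesenchyme, rose in both arms up to day 8 and was lower at day 10. In control cultures it read 4.89 and 5.06 on day 0, 6.07 and 5.84 on day 4, 6.95 and 6.97 on day 5, 8.33 and 8.26 on day 6, 8.86 and 8.79 on day 8, and 8.27 and 8.15 on day 10. With Sox17 shRNA it read 5.27 on day 0, 5.62 and 6.13 on day 4, 6.55 and 6.90 on day 5, 8.06 and 7.35 on day 6, 8.34 and 7.97 on day 8, and 7.53 and 7.64 on day 10. From day 5 the Sox17 shRNA arrays were below the control arrays, by a narrow margin at day 5.

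The Prrx2 difference was -0.59 at day 6 (adjusted p = 0.178), -0.67 at day 8 (adjusted p = 0.122) and -0.63 at day 10 (adjusted p = 0.0994), none of them called in this fit. Without Sox17 shRNA day 6 replicate 1 the day 6 difference was -0.95 and called (adjusted p = 0.0443), and without replicate 2 it was -0.23 (adjusted p = 0.771). With array weights Prrx2 was called at day 8 (adjusted p = 0.0373) and day 10 (adjusted p = 0.00961). The average of these days was -0.63 (SE 0.13, 1.55-fold lower) and was called (adjusted p = 0.00203). It was -0.51 and still called without Sox17 shRNA day 6 replicate 2 (adjusted p = 0.00749).

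**Figure D2:**
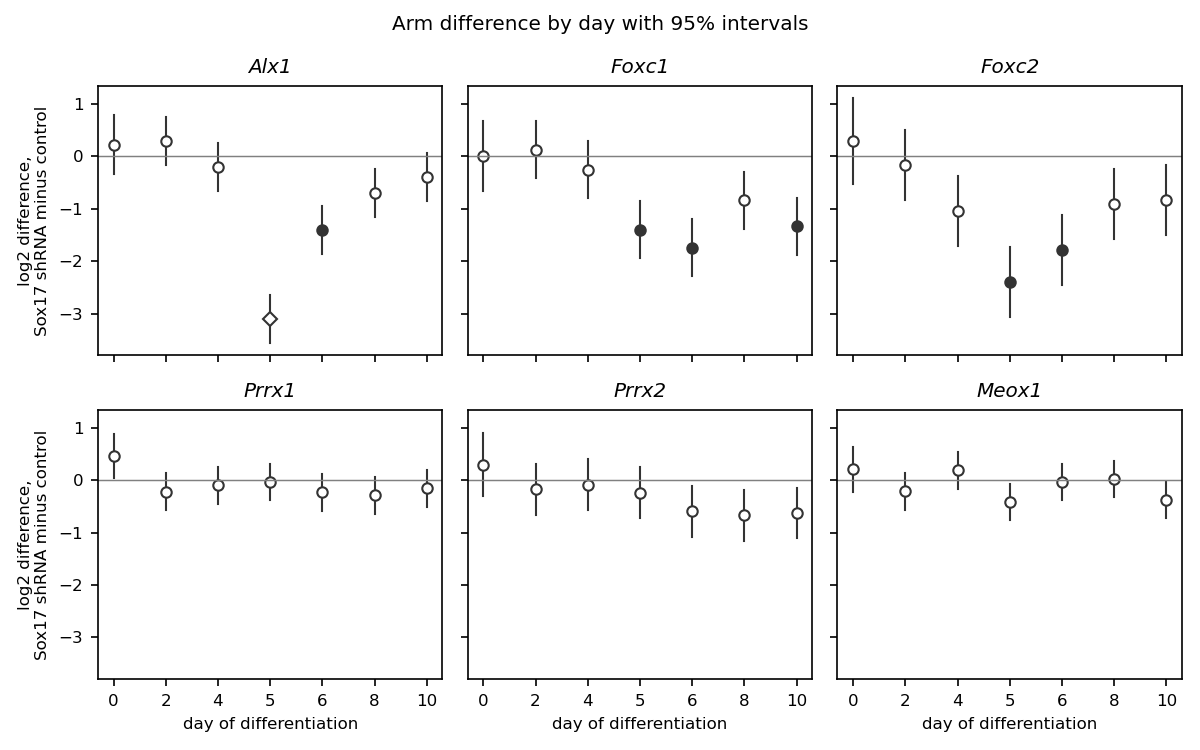
Log2 difference between the arms (Sox17 shRNA minus control) at each day, with 95% intervals of the fit. Filled circles passed the adjusted threshold, open circles did not, and the diamond marks Alx1 at day 5, which was not tested. The filled circle of Alx1 at day 6 describes that gene and gives no independent support. Foxc2 at day 5 lies at -2.39 and Foxc1 at day 6 at -1.74.

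RefSeq promoter sequences (GRCm38.p6) were at hand for 3 of the 6 genes. They are shown because an entry was found for them, and their courses over the arrays did not choose them. Whether CG pairs go with the course of expression was not tested. Each is the 250 bases upstream of the annotated start, 5′ to 3′ on the gene's strand, at chr13:31806396-31806645 (plus strand), chr2:30845117-30845366 (plus strand) and chr1:163313651-163313900 (minus strand), with each CG pair in capitals.
Foxc1: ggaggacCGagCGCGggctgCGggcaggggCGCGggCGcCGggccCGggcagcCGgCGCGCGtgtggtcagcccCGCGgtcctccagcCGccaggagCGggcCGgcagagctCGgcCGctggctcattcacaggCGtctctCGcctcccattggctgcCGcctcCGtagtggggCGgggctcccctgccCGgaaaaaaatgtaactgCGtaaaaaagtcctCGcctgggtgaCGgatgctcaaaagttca
Prrx2: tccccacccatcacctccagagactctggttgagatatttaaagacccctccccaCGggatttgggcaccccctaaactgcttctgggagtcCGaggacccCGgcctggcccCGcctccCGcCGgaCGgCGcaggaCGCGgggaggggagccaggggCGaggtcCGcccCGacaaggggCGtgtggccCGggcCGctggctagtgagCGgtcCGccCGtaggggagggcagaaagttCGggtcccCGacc
Prrx1: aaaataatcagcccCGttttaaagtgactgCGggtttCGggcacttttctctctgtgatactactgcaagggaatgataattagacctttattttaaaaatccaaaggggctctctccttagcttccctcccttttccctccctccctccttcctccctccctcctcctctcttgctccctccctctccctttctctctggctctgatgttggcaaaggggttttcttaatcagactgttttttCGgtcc

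The Foxc1 window held 29 CG pairs and the Prrx2 window 21, against 4 in the Prrx1 window and a median of 6 over 32851 promoter windows of that length. At least as many CG pairs as in Foxc1 stood in 6.78% of all windows, as many as in Prrx2 in 16.3% and as many as in Prrx1 in 62.2%. The SOX core letters ACAAT, searched on both strands (ATTGT on the other), matched at 0 positions in each of the 3 windows, and 27.7% of all windows held a match. This says only that these letters are not in these windows.

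Prrx1, the partner of Prrx2 in limb and craniofacial mesenchyme, rose late in both arms. On its representing probe set, 1425527_at, the control arrays read 4.74 and 4.86 on day 5, 5.15 and 5.24 on day 6, 5.95 and 6.25 on day 8, and 6.45 and 6.51 on day 10, here in ascending order. The Sox17 shRNA arrays spanned 4.69 to 4.85 on day 5, 4.72 to 5.20 on day 6, 5.70 to 5.92 on day 8 and 6.12 to 6.52 on day 10. The arms overlapped at days 5, 6 and 10. The late average differed by -0.23 (95% interval -0.43 to -0.03, adjusted p = 0.108), which was not called. It was called without Sox17 shRNA day 6 replicate 1 (-0.31, adjusted p = 0.0261) and without Sox17 shRNA day 10 replicate 2 (-0.30, adjusted p = 0.0408), and it was -0.15 without Sox17 shRNA day 6 replicate 2 (adjusted p = 0.333).

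The other 5 probe sets of Prrx1 did not give 1 answer. Probe set 1425528_at read 7.35 and 7.34 in control and 6.25 and 6.80 with Sox17 shRNA at day 10, a difference of -0.82 (adjusted p = 0.0222), and over the late days it differed by -0.66 (adjusted p = 0.000859). Probe set 1439774_at read 6.73 and 6.69 against 5.57 and 6.31 at day 10, a difference of -0.77 (adjusted p = 0.0422), with -0.90 at day 8 (adjusted p = 0.0281) and -0.75 over the late days (adjusted p = 0.000457). Probe sets 1432129_a_at, 1425526_a_at and 1458004_at were not called on any day or over the late days, and the last was nearly flat on all arrays. Of these, 1425526_a_at and 1458004_at did not pass the filter, with 1 and 0 arrays above 5.53, and 1432129_a_at passed with 2. Probe sets 1425528_at and 1439774_at had 9 and 6 such arrays. Averaged over all its probe sets, those that did not pass the filter included, Prrx1 differed by -0.33 over the late days and was called (adjusted p = 0.00255).

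**Figure D3:**
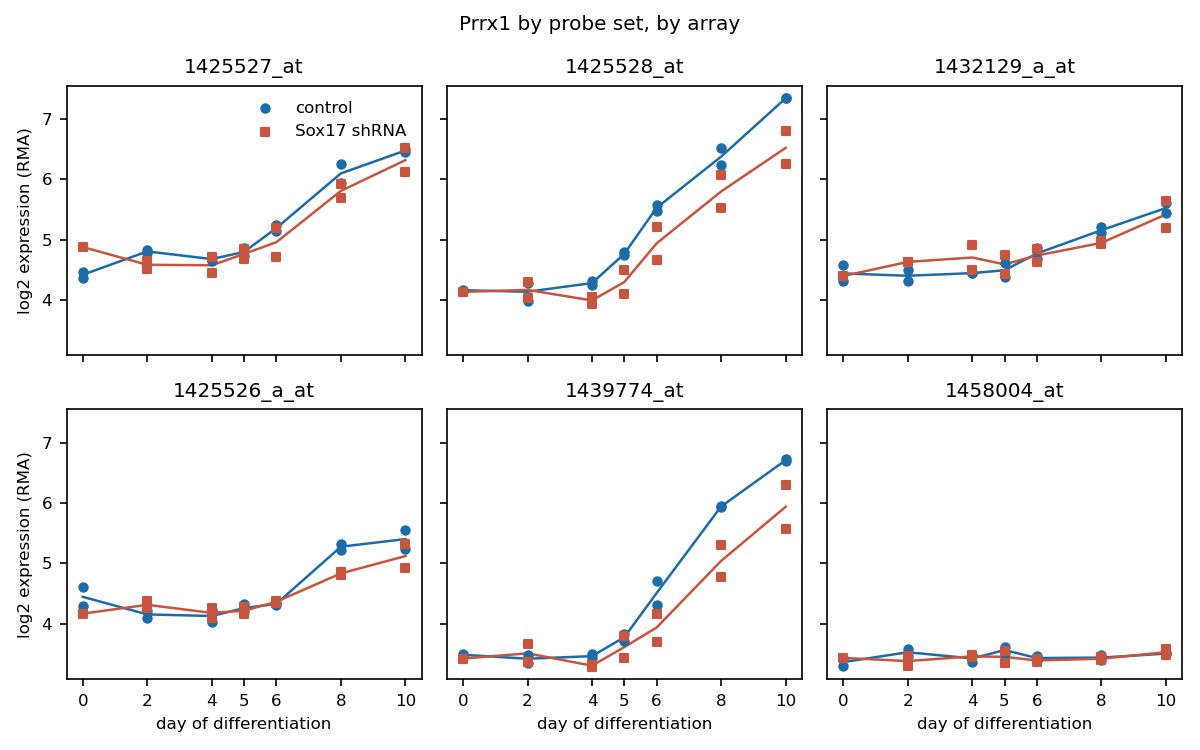
Log2 expression (RMA values) of the 6 probe sets of Prrx1 on every array, by day. Circles are control arrays, squares are Sox17 shRNA arrays and lines join group means. At day 10 the arms are apart for 1425528_at (7.35 and 7.34 against 6.25 and 6.80) and overlap for 1425527_at.

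Meox1, a homeobox factor of the somites, moved little. Its 14 control arrays spanned 5.46 to 6.27 with a median of 5.78, and its 13 Sox17 shRNA arrays spanned 5.34 to 6.00 with a median of 5.75. At days 5 and 10 the arms did not overlap. The difference was -0.41 at day 5 (95% interval -0.76 to -0.06, adjusted p = 0.136). At day 10 it was -0.38 (-0.72 to -0.03, adjusted p = 0.183), and it was called with array weights (adjusted p = 0.0477). Without Sox17 shRNA day 10 replicate 1 it was -0.25. Over the late days it was -0.13 (95% interval -0.33 to 0.07, adjusted p = 0.407), also without Sox17 shRNA day 6 replicate 2 (adjusted p = 0.471).

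In the comparisons between arms, every call among these genes was in the lower direction. At days 0, 2 and 4, 0 of 6 were called lower, where 0.760%, 0.993% and 1.81% of all genes were. At an unadjusted p below 0.05 the number was 1 at day 0, 0 at day 2 and 1 at day 4, against 13.8%, 13.7% and 17.9% of all genes. At day 5, 2 of the 5 genes tested were called lower (Foxc1 and Foxc2), against 3.24% of all genes lower and 6.15% higher. At day 6, Foxc1 and Foxc2 were called lower, 2 of the 5 genes without Alx1, which passed the filter only through control arrays, against 2.36% of all genes lower and 2.84% higher. At day 8, 0 of the 5 genes without Alx1 were called, with 2.93% of all genes called lower. With Alx1 counted, 4 of 6 had an unadjusted p below 0.05 (15.3% of all genes did). At day 10, 1 of the 5 genes without Alx1 was called lower (Foxc1), against 4.38% of all genes. Over days 6, 8 and 10 together, 3 of the 5 genes without Alx1 were called lower (Foxc1, Foxc2 and Prrx2), where 10.0% of all genes were called lower and 11.3% higher. Both Sox17 shRNA arrays lay below both control arrays for 4 of the 5 genes other than Alx1 on day 5, 3 on day 6, 4 on day 8 and 4 on day 10, while 24.6%, 19.1%, 26.6% and 27.8% of all genes did so. Since the genes were proposed with results of these arrays known, the counts describe them and give no independent support.

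The steps between neighbouring days show when the genes rose within an arm. In control cultures Foxc1 rose by 1.35 from day 2 to day 4 (SE 0.26, adjusted p = 0.000748) and by 1.86 from day 4 to day 5 (SE 0.26, adjusted p = 0.000282). On the second Foxc1 probe set, 1419485_at, the control step from day 2 to day 4 was 0.33 and not called (adjusted p = 0.304). The control step from day 4 to day 5 was called higher on that probe set too (adjusted p = 0.000868). Foxc2 rose by 0.93 (adjusted p = 0.0319) and then by 1.68 (adjusted p = 0.00334). Its first step was not called without control day 2 replicate 1 or 2 or control day 4 replicate 2 (0.53, adjusted p = 0.359), nor with the spike-in signal as a covariate (0.68, adjusted p = 0.115). Its second step was not called without control day 4 replicate 1 (1.28, adjusted p = 0.078) or control day 5 replicate 1 (1.62, adjusted p = 0.0525). Prrx2 rose by 1.0 from day 4 to day 5 (adjusted p = 0.011; not called without control day 4 replicate 1 or either control array of day 5) and by 1.34 from day 5 to day 6 (adjusted p = 0.000638). Prrx1 rose by 0.91 from day 6 to day 8 (adjusted p = 0.00228; 0.75 and not called without control day 8 replicate 2). Over all genes 15.5%, 4.00%, 11.2%, 5.65% and 0.263% were called higher in the 5 control steps from day 2 to day 10. With Alx1 left out, the genes called higher numbered 2, 3, 1, 1 and 0 of 5. In the last step 3 had an unadjusted p below 0.05 in either direction (5.42% of all genes), and the mean of Prrx2 fell from 8.83 to 8.21.

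With Sox17 shRNA the genes called higher in the same steps numbered 2, 1, 2, 2 and 0 of 5 with Alx1 left out, against 11.9%, 2.29%, 9.81%, 5.93% and 2.15% of all genes. In the last step 2 of 6 had an unadjusted p below 0.05 in either direction (11.6% of all genes), and the mean of Prrx2 fell from 8.155 to 7.58. Foxc1 rose by 0.96 from day 2 to day 4 (adjusted p = 0.0126), a call lost without Sox17 shRNA day 2 replicate 1 (0.79) or day 4 replicate 2 (0.47), and by 1.06 from day 6 to day 8 (adjusted p = 0.0118), a call lost without Sox17 shRNA day 6 replicate 2 (0.71) or day 8 replicate 1 (0.88). Its step from day 4 to day 5 was 0.72 and not called (adjusted p = 0.118), but 1.21 and called without Sox17 shRNA day 4 replicate 2 (adjusted p = 0.00423). On the second Foxc1 probe set, 1419485_at, the step from day 2 to day 4 was 0.09 and not called (adjusted p = 0.816). Its step from day 6 to day 8 was 0.85 and called (adjusted p = 0.0204). Foxc2 rose by 1.0 from day 5 to day 6 (adjusted p = 0.0383), and this call was lost without either Sox17 shRNA array of day 5 or without day 6 replicate 1 (0.43). Prrx2 rose by 0.67, 0.85 and 0.98 in the 3 steps from day 2 to day 6 (adjusted p = 0.0427, 0.0396 and 0.00729). The first of these fell to 0.41 without Sox17 shRNA day 4 replicate 2, and the third to 0.63 without day 6 replicate 1, and neither was then called. The step from day 4 to day 5 fell to 0.59 without day 4 replicate 1 and to 0.67 without day 5 replicate 2 and was not called. The first step was lost without any 1 of 13 arrays and the second without any 1 of 12, among them each control array of days 0, 5, 6, 8 and 10. Neither of these 2 steps of Prrx2 was called with the spike-in signal as a covariate (adjusted p = 0.0905 and 0.0647). The same held with no filter on low values (0.0509 and 0.051) and with array weights (0.195 and 0.523). Prrx1 rose by 0.85 from day 6 to day 8 (adjusted p = 0.00252).

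Whether the arm difference itself changed from one day to the next was tested as an interaction, and 0 of these genes was called by limma in any of the 4 steps from day 4 to day 10, with 3, 0, 2 and 0 at an unadjusted p below 0.05 (5.84%, 9.02%, 5.68% and 3.81% of all genes). Over all genes 0.0978%, 0.707%, 0.384% and 0.135% were called. Alx1 is counted only in the steps from day 6 to day 8 and from day 8 to day 10, where it gives no independent support. From day 4 to day 5 the difference moved by -1.14 for Foxc1 (SE 0.37, unadjusted p = 0.00595, adjusted p = 0.44) and by -1.34 for Foxc2 (SE 0.45, unadjusted p = 0.008, adjusted p = 0.522). Foxc1 was called there without Sox17 shRNA day 4 replicate 1 (-1.63, adjusted p = 0.0427). Differences of unequal size on neighbouring days are therefore not shown to differ from each other.

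Across the 27 arrays, Foxc1 correlated with Foxc2 (Pearson r = 0.946) and with Prrx2 (r = 0.948), whereas Alx1 correlated with the other 5 genes between 0.178 and 0.699. These are descriptions, since arrays share days and arms. The genes most like Foxc1 over the 27 arrays were Btg1 (r = 0.969), the TGF-beta receptor gene Tgfbr1 (0.963) and Slc22a17 (0.960). Those most like Foxc2 were Eya1 (0.952), Foxc1 and Irx5 (0.929), and those most like Prrx2 were Bach2 (0.966), the ligand gene Tgfb2 (0.965) and Irx3 (0.964). For Prrx1 they were Pcdhb17 (0.976), the collagen gene Col11a1 (0.971) and Vnn1 (0.955). For Meox1, no gene exceeded 0.689 (Ntn4), followed by Crtc3 (0.681) and Mn1 (0.680).

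For Alx1 the most like were Zfp62 (r = 0.806), Hesx1 (0.796), Ppm1h (0.796), Irx1 (0.783) and Pnpla8 (0.783). Their correlations with Alx1 over the 13 Sox17 shRNA arrays ran from -0.369 to 0.416, and over the 14 control arrays from 0.827 to 0.935. The genes were picked over all 27 arrays, which hold the control peak that chose Alx1, so high control values follow from the choice. With Sox17 shRNA, Alx1 spanned only 3.71 to 4.65, low values that leave little to correlate. A difference in correlation between the arms was not tested. Zfp62 read 8.62 and 8.30 in control at day 5, above its 7.36 and 7.32 at day 4, and 8.01 and 7.67 with Sox17 shRNA at day 5.

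For the gene lists from here on, the shares called over all genes were 3.24% lower and 6.15% higher at day 5. At day 6 they were 2.36% lower and 2.84% higher. Over days 6, 8 and 10 they were 10.0% lower and 11.3% higher. At day 5, 22.5% of all genes had an unadjusted p below 0.05. Among 12 related homeobox and forkhead factors, 6 passed the filter. At day 5 limma called 0 of them (1 at an unadjusted p below 0.05), and only Pitx1 was called at day 6, higher by 1.38 (adjusted p = 0.00291). Over the late days 3 were lower and 2 higher, with a median of -0.18 against 0.02 over all genes. The lower genes were Foxd1 (-2.15, adjusted p = 6.12e-11), Shox2 (-1.14, adjusted p = 5.75e-10) and Foxd2, and the higher were Pitx1 (1.39) and Foxf1 (0.86). Relatives of the described factors thus moved in both directions.

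Of 20 other mesenchyme transcription factors 16 were measured. At day 5, 3 were lower and 0 higher, namely Snai2 (-2.92, adjusted p = 0.000951), a repressor of epithelial genes, Eya1 (-1.91, adjusted p = 0.000615), a transcriptional cofactor and phosphatase, and Tcf21 (-1.09, adjusted p = 0.0362), a factor of visceral mesenchyme. At day 6 Eya1 was lower (-1.85) while Msx1 (1.37) and Twist2 (1.08) were higher. Over the late days 3 were lower and 4 higher. Eya1 (-1.33) and Sox9 (-0.60) were lower, Twist2 (1.11) and Msx1 (0.97) were higher, and Snai2, lower at day 5, was higher by 0.90 (adjusted p = 0.0233).

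Mesenchymal cell products, 13 of 14 measured, went the other way from Foxc1 and Foxc2. At day 5, 2 of 13 were called higher (Fn1 by 1.15 and Col1a1 by 0.88) and 0 lower. Over the late days 8 of 13 were higher and 0 lower, with a median difference of 0.73 against 0.02 over all genes. Col1a1, a chain of collagen I, was higher by 1.73 (adjusted p = 1.11e-07), Col1a2 by 1.39, Postn, which encodes the matrix protein periostin, by 1.13 and Dcn, which encodes decorin, by 1.0. The mean log2 level of the list went, in both arms, from 5.79 to 5.80 on the control arrays of day 0 to 10.26 to 10.29 at day 10, and from 5.82 to between 11.07 and 11.17 with Sox17 shRNA.

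Markers of other cell types also moved with the arms. Of 6 cardiomyocyte genes, limma called 0 at day 5 (1 at an unadjusted p below 0.05), when the list mean was 4.75 to 4.88 in control and 4.65 to 4.70 with Sox17 shRNA. At day 6, 5 of 6 were lower and the list mean was 9.80 to 9.90 in control and 5.23 to 5.46 with Sox17 shRNA, and over the late days 6 of 6 were lower (median -4.12). Of 6 definitive endoderm genes, Sox17 among them, 2 were lower at day 5 (Foxa1, -2.13, and Foxa2, -1.03), and the list mean was 8.78 to 8.81 in control and 6.93 to 8.23 with Sox17 shRNA. Of 6 pluripotency genes 3 were higher at day 5 (Tdgf1 by 2.74, Nanog by 2.28 and Zfp42 by 2.24), with a list mean of 7.31 to 7.52 in control and 7.85 to 9.22 with Sox17 shRNA. The part of these cell types in the results was not tested.

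**Figure D4:**
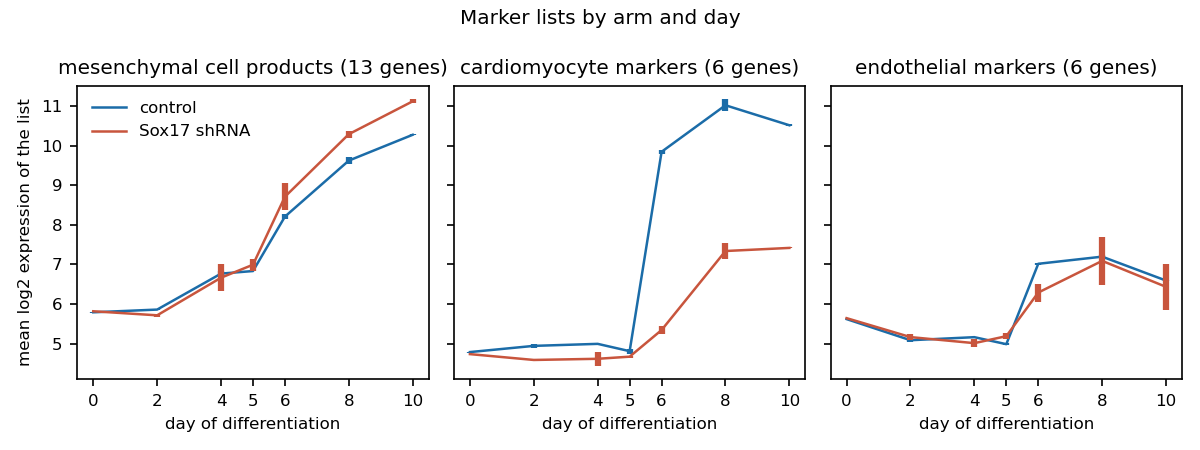
Mean log2 expression of 3 gene lists by day and arm; bars span the 2 arrays of a group and lines join their midpoints. Mesenchymal cell products reach 10.26 to 10.29 (control) and 11.07 to 11.17 (Sox17 shRNA) at day 10, whereas cardiomyocyte genes at day 6 lie at 9.80 to 9.90 and 5.23 to 5.46.

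Of the source tissues named above, paraxial mesoderm and somite genes (12 of 16 measured) included 1 called higher at day 5 (Dll3, a Notch ligand gene, by 1.12) and 2 called lower at day 6 (the sclerotome factors Pax1, -1.94, and Pax9, -0.58). Over the late days 3 were lower, led by Pax1 (-1.81, adjusted p = 1.05e-09), and Aldh1a2, which makes retinoic acid, was higher (0.91), with a list median of 0.02 as over all genes (0.02). Of 13 neural crest genes 8 were measured, with 1 lower at day 5 (the endothelin receptor gene Ednrb, -0.94) and 2 lower over the late days (Crabp1, -1.20, and Tfap2a, -0.69). Their list mean at day 5 was 6.25 to 6.26 in control and 5.95 to 6.07 with Sox17 shRNA. Of 6 endothelial genes limma called 0 at day 5 (0 at an unadjusted p below 0.05), and Emcn alone was lower over the late days (-1.15). Of 5 neural genes 1 was lower at day 5 (Otx2, -1.54) and 3 over the late days. Of 6 genes known from other work to lie downstream of these factors 4 were measured, and over the late days Dll4 was lower (-0.56) and Tnc higher (0.84).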

How the data were processed

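Total RNA of 27 mouse embryonic stem cell cultures was measured on Affymetrix arrays, 1 array per culture. The deposited log2 values (45101 probe sets) were made by the authors with RMA, per the submitters' processing notes; its version is not given in the sources used here. RMA equalises the arrays' distributions and levels off near background, so folds of low genes such as Alx1 are understated. Array number (2 per group), not read depth, limits the precision.

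Probe sets with a single symbol in the platform's annotation were kept where 2 or more arrays exceeded 5.53, the median of the whole table, and the probe set of highest mean represented each gene. All arrays were fitted together with limma 3.58.1 in R 4.3.3 (14 group means, 13 residual degrees of freedom, intensity trend, two-sided tests), after a check on simulated data. Where an arm has 1 array its spread is taken from the other groups. Alternatives changed the filter, probe set, scaling, moderation, weights, covariates and arrays used. Members, lists and rules were chosen with earlier results of these data known. Named genes are the members, Sox17, the genes most correlated with each member (5 for Alx1, 3 otherwise) and up to 4 called genes of largest difference per list. Promoter windows and motifs were read with Python, and figures drawn with matplotlib.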

Additional observations from a re-analysis of the deposited data

How the results depend on the processing

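The numbers of members called lower by Sox17 shRNA at days 0, 2, 5 and 6 and over days 6, 8 and 10 stayed within 1.5 times under each alternative run, and no called value changed sign. At day 4 the main number of 0 became 1 with a replicate block or the spike-in covariate and 2 without the 2 arrays of highest actin 3' to 5' difference (an alternative chosen after seeing the data). At day 8 it went from 0 to 1 (mean of all probe sets, spike-in covariate), 2 (replicate block) or 3 (array weights, without the 2 arrays). At day 10 it went from 1 to 2 (replicate block), 3 (without the 2 arrays, only that day's arrays) or 4 (array weights). Leaving out 1 array gave 0 to 1 at days 4 and 8, 2 to 4 at day 6 (3 on all arrays, Alx1 counted) and 4 to 5 over the late days (4 on all arrays, Alx1 counted).

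The steps were less stable. In the control arm, days 2 to 4 went from 2 to 1 with the spike-in covariate, days 5 to 6 from 1 to 2 (mean of probe sets, replicate block, spike-in covariate, without the 2 arrays) or 3 (array weights), days 6 to 8 from 1 to 0 (stricter filter, which keeps 3 members) or 2 (array weights), and days 8 to 10 from 0 to 3 (array weights). These 3 calls of days 8 to 10 were in both directions: Meox1 (0.48) and Prrx1 (0.38) rose and Prrx2 (-0.62) fell. In the Sox17 shRNA arm, days 2 to 4 went from 2 to 1 (no filter, mean of probe sets, spike-in covariate) or 0 (array weights, without the 2 arrays), days 4 to 5 from 1 to 0 (no filter, spike-in covariate, array weights) or 2 (replicate block, without the 2 arrays), days 5 to 6 from 2 to 1 (array weights), days 6 to 8 from 2 to 1 (stricter filter) and days 8 to 10 from 0 to 1 (mean of probe sets). Leaving out 1 array gave, in these 4 control steps, 1 to 3, 1 to 2, 0 to 1 and 0, and 1 to 3 for days 4 to 5. In the 5 Sox17 shRNA steps it gave 0 to 2, 0 to 2, 0 to 2, 1 to 2 and 0. The interaction of days 4 and 5 gave 0 to 1. The causes were not tested. Deviations of same-numbered arrays correlated at 0.129, 0.683, 0.22, 0.117, 0.102 and 0.0986 at days 2, 4, 5, 6, 8 and 10. The last is not above 0.1 and the labels name no shared batch, so the numbers were not taken as pairs, although at day 4 they go with the spike-in signal. With the replicate block, which leaves 6 residual degrees of freedom, Foxc2 was called at days 4 (adjusted p = 0.00725), 8 (0.00619) and 10 (0.00647), and Foxc1 at day 8 (0.0258). With 2 arrays per group, a difference that was not called may still exist.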

Other observations

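Related factors outside the member list differed strongly at late days. Foxd1, a forkhead factor of kidney stroma and forebrain, was lower with Sox17 shRNA by -2.52 at day 8 (limma adjusted p = 3.34e-08) and -3.46 at day 10 (adjusted p = 8.06e-10). Shox2, a homeobox factor of limb and of the sinoatrial node, was lower by -1.67 at day 8 (adjusted p = 1.79e-08) and -1.56 at day 10 (adjusted p = 4.46e-08). Pitx1, a homeobox factor of the hindlimb and oral ectoderm, was higher by 1.81 at day 8 (adjusted p = 0.000187) and by 0.98 at day 10 (adjusted p = 0.0193). Among the mesenchymal products, Dcn was higher by 2.20 at day 10 (adjusted p = 1.05e-05) and Lum, which encodes lumican, by 1.70 (adjusted p = 0.0057).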
